A study of Homo sapiens with 4 samples.

Results

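Of the 44591 genes counted in HaCaT cells, 9 were transcription factors that set or execute the epidermal lineage programme: TP63, KLF4, KLF5, GRHL1, GRHL2, GRHL3, OVOL1, ZNF750 and TFAP2A. They were taken by gene symbol, and each symbol had 1 entry among the 19233 protein-coding genes. HaCaT is a spontaneously immortalized line of human epidermal keratinocytes, grown here without treatment in Dulbecco's medium with 12% fetal bovine serum according to the sample labels. Total RNA of 4 biological repeats was sequenced, so the data hold 1 condition of 1 cell line, and no comparison between conditions was possible. The study used these libraries to ask which sirtuin keratinocytes express most, and the transcription factors were not part of that question.

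In the epidermis, p63 (TP63) is required for the formation and self-renewal of the stratified epithelium, and AP-2α (TFAP2A) acts beside it on keratin genes of the basal layer. KLF5 is a zinc finger factor of proliferating basal cells, while its relative KLF4 is known for building the barrier in suprabasal cells. The grainyhead-like factors GRHL1, GRHL2 and GRHL3 control desmosomes, junctions and barrier genes, OVOL1 is a zinc finger repressor that supports the exit from proliferation, and ZNF750 is a p63-induced factor that switches on terminal differentiation and represses progenitor genes.

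HaCaT keratinocytes transcribed 8 of the 9 factors above the limit of detection, a mean of 1 TPM (the usual transcript abundance unit, scaled for gene length and library size), while ZNF750 stayed below it. Of all protein-coding genes, 63.3% passed the same limit. KLF5 was the highest factor in 4 of 4 replicates, with 121 ± 32.9 TPM (SD, n = 4), followed by TP63 with 71.2 ± 25.5 TPM (SD, n = 4). GRHL2, TFAP2A, OVOL1 and KLF4 formed a middle group with means of 52.96, 47.3, 46.3 and 34.2 TPM. GRHL3 and GRHL1 were lower at 8.92 ± 3.38 and 8.07 ± 3.66 TPM (SD, n = 4). TPM was computed over protein-coding genes from the deposited counts and gene lengths, so it is a level per length that can be compared between genes.

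The 250 bases before annotated start sites are printed for the highest factors (KLF5 and TP63) and the most variable ones (TFAP2A and KLF4). They come from RefSeq on build GRCh38.p14, and which start sites these cells used was not measured. RefSeq windows were matched for 6 of the 9 factors, with 9 start sites in all. OVOL1, ZNF750 and GRHL2 are named only. Each window is written 5′ to 3′ on the strand of the gene. Capitals mark matches, on either strand, to the 7 motifs searched. These were GCCNNNGGC for AP-2 factors, GGGCGG for the GC box that SP and KLF factors bind, and CCACCC for the other common type of KLF site. AACNNGTT stood for grainyhead factors, CCGTTA for OVO factors and TATAAA for the core promoter element of that name, and a half-site of the kind p63 binds was searched as well.
KLF4, chr9:107489770-107490019, minus strand: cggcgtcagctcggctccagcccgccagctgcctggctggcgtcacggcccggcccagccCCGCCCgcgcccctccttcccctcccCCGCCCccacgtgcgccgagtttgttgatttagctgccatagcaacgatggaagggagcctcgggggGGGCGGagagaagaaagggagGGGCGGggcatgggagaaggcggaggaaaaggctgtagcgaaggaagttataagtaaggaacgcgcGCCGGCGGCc
TFAP2A, chr6:10419660-10419909, minus strand: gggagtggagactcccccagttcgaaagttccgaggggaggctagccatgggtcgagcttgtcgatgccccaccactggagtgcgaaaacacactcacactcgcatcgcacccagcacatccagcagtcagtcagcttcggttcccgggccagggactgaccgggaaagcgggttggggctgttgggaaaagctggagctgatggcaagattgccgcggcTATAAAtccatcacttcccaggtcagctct
TP63, chr3:189631139-189631388, plus strand: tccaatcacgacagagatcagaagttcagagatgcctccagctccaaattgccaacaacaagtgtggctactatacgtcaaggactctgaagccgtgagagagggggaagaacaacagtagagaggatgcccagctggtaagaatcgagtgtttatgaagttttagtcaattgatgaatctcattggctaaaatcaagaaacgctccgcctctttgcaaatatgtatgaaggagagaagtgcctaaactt
KLF5, first start, chr13:73054726-73054975, plus strand: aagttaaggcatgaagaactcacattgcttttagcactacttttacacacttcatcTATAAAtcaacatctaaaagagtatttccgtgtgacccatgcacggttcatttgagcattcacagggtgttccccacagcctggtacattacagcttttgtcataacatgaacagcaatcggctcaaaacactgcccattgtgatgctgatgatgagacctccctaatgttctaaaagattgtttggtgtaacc
KLF5, second start, chr13:73058755-73059004, plus strand: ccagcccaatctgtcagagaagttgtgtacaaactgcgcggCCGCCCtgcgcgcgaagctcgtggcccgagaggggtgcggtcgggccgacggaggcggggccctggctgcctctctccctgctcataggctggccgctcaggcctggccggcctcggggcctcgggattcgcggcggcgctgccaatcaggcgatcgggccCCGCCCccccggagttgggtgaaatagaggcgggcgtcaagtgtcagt

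The KLF4 window held 4 GC boxes and 1 AP-2 match, and its GC content was 69.2%. The window of the second KLF5 start held 2 GC boxes at a GC content of 70.8%, while that of the first start had 40.8% GC and a single TATAAA. The TFAP2A window had a TATAAA beginning at position -30 from the start site and no other match. A second TFAP2A start (window chr6:10412392-10412641, 71.2% GC, not printed) had no TATAAA and 1 CCACCC beginning at position -26. The TP63 window matched none of the 7 motifs, which holds for the start shown only, since no window at another TP63 start was searched. In all 34788 windows of this length in the table, GGGCGG occurred in 42.6%, CCACCC in 31.2%, GCCNNNGGC in 19.8%, TATAAA in 10.8%, the p63 half-site in 5.59%, AACNNGTT in 3% and CCGTTA in 2.46%. These matches describe letters only, and no binding was measured. Of 4 protein-coding KLF4 transcripts in GENCODE release 29, 1 begins within 100 bases of the start site shown. The same held for 1 of 9 TFAP2A transcripts at either start, and for 1 of 2 KLF5 transcripts at the first start and 0 of 2 at the second. Of 12 protein-coding TP63 transcripts, 3 begin within 100 bases of the start site shown and 9 begin elsewhere. Counts per gene therefore cannot tell apart the TP63 isoforms with and without the transactivation domain, which arise from separate promoters.

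The 4 libraries were not alike. The total count was 73082279 in replicate 1 and between 17056035 and 19745170 in replicates 2 to 4. Protein-coding genes took 76.1% of the counts in replicate 1 against 95.3% to 96.4% in the others, which is why levels were scaled over protein-coding genes only. A limit of 3 counts corresponded to 0.0539 CPM (counts scaled to the protein-coding total) in replicate 1 and to 0.159 to 0.185 in the others. Because replicate 1 stood apart, each level is also given without it. The cell identity was checked with defining markers: all 6 keratinocyte markers were detected, led by KRT14 with 6847 ± 561 TPM and KRT5 with 3244 ± 1504 TPM (SD, n = 4). Of all protein-coding genes, 63.3% passed the limit of 1 TPM. Of 17 markers of fibroblasts, melanocytes, immune cells and endothelium, 4 passed it, and these were CD68, COL1A1, PMEL and LUM. Their summed level was 5.20 to 9.60 TPM for the 6 fibroblast genes, 1.36 to 3.52 TPM for the 4 melanocyte genes, 8.42 to 43.9 TPM for the 4 immune genes and 0.859 to 2.36 TPM for the 3 endothelial genes. TYR and PECAM1 were at 0 counts in every replicate, and PTPRC was at 0 in 3 of 4. CD68, a lysosomal protein gene that is not restricted to immune cells, made up nearly all of the immune sum.

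The p63 gene, TP63 (chromosome 3, 189314535 to 189615068, plus strand; positions are those of the files, whose processing notes name build hg19), had 90.7, 86.1, 34.5 and 73.4 TPM in replicates 1 to 4. Replicate 3 was low and the other replicates lay close together. In TMM scaling the median gene was shifted by 0.235 (log2) in replicate 3, against -0.115 to -0.0349 in the others. The part of this shift in the low values of replicate 3, here and for other genes, was not tested. The counts behind these values were 15458, 4015, 2175 and 3838. TP63 ranked second among the factors in replicates 1, 2 and 4 and was below KLF4 and TFAP2A in replicate 3. Among the 12165 detected protein-coding genes its mean level stood at percentile 79.5. Without replicate 1 its mean was 64.7 ± 26.9 TPM (SD, n = 3).

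TFAP2A (chromosome 6, 10396916 to 10419797, minus strand) had 9.21, 77.7, 42.1 and 59.9 TPM. Replicate 1 was far below the others, which did not overlap with it, and the highest value was 8.43 times the lowest. It had 952 counts in replicate 1 although that library was the deepest, against 1610 to 2197 counts in the others. The non-coding genes HIPSTR and TFAP2A-AS1 lie, on the opposite strand, within TFAP2A. HIPSTR had 4.58% to 10.5% of the counts of TFAP2A and TFAP2A-AS1 0.632% to 2.73%, and whether the counting used strand is not given in the sources used here. Without replicate 1 the mean of TFAP2A was 59.9 ± 17.8 TPM (SD, n = 3).

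KLF5 (chromosome 13, 73629114 to 73651680, plus strand) had 152, 119, 75.5 and 137 TPM. As with TP63, replicate 3 was the lowest, and the range of the 4 values was 2.01-fold, the narrowest of the detected factors. Its mean stood at percentile 88.5 of detected genes, with 1392 protein-coding genes above it. KLF4 (chromosome 9, 110247133 to 110252001, minus strand) behaved otherwise, with 13.9, 55.6, 50.1 and 17.3 TPM. Replicates 2 and 3 were high and replicates 1 and 4 low, a grouping taken from these values. Without replicate 1 the mean was 110 ± 31.5 TPM for KLF5 and 40.98 ± 20.7 TPM for KLF4 (SD, n = 3). The low value of replicate 4 rested on 386 counts and that of replicate 1 on 1011 counts. The position of KLF4 within the replicates moved accordingly, from percentile 36.8 of detected genes in replicate 1 to percentile 73.7 in replicate 3.

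The 3 grainyhead-like genes kept one leading member. GRHL2 (chromosome 8, plus strand), a regulator of epithelial junction genes, had 81.8, 49.5, 30.6 and 50.0 TPM. GRHL1 (chromosome 2, 10091792 to 10142412, plus strand), which acts on desmosomal cadherin genes, had 13.4, 7.39, 5.00 and 6.55 TPM. GRHL3 (chromosome 1, 24645812 to 24690972, plus strand), which is needed for barrier formation and wound closure, had 10.7, 10.8, 3.87 and 10.3 TPM. All values of GRHL2 lay above all values of the other two. Without replicate 1 the means were 43.3 ± 11.03 TPM for GRHL2, 6.31 ± 1.21 TPM for GRHL1 and 8.31 ± 3.86 TPM for GRHL3 (SD, n = 3). GRHL3 was even across replicates 1, 2 and 4 and low in replicate 3, where it had 119 counts. The end of GRHL3 overlaps STPG1 on the opposite strand, which had 549, 250, 188 and 274 counts against 894, 245, 119 and 263 for GRHL3, so part of either count may belong to the other gene where the counting did not use strand.

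OVOL1 (chromosome 11, 65554505 to 65564690, plus strand) had 75.3, 40.3, 31.5 and 38.2 TPM. Replicates 2 to 4 lay within 1.28-fold of each other, the narrowest range of any detected factor there, and replicate 1 was above them. Their mean was 36.7 ± 4.60 TPM (SD, n = 3). An unnamed antisense gene over the end of OVOL1 had 14.4% to 16.2% of the counts of OVOL1 in replicates 2 to 4 and 0.434% in replicate 1. The part of reads from the opposite strand in either gene was not tested. ZNF750 (chromosome 17, 80787310 to 80797931, minus strand) had 24, 15, 6 and 7 counts, or 0.310, 0.707, 0.209 and 0.294 TPM, with a mean of 0.404 ± 0.266 TPM without replicate 1 (SD, n = 3). The exact 95% Poisson intervals of these levels reached from 0.0768 TPM at the lowest to 1.17 TPM at the highest and overlapped in all 4 replicates. These intervals, like all counting intervals given here, cover counting error only. ZNF750 lies inside TBCD, a tubulin folding cofactor gene on the opposite strand with 2029 to 3190 counts, so even these few reads may not be its own. In bulk RNA, fewer cells with a transcript and less transcript per cell cannot be told apart, which holds for every level given here.

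**Figure D1:**
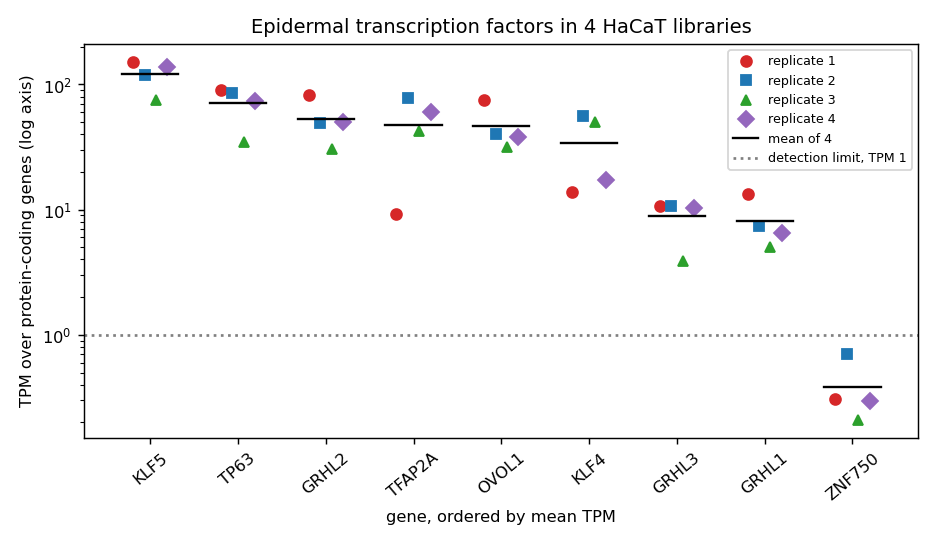
TPM over protein-coding genes (log axis) of the 9 factors in each of 4 HaCaT replicates, ordered by mean, with the mean as a black bar and the detection limit of 1 TPM dotted. KLF5 is highest in every replicate, ZNF750 lies below the limit, and TFAP2A and KLF4 spread most.

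The order of the factors was only partly shared by the replicates. For each of the 8 neighbouring pairs in the order of means, the difference of log2(TPM + 1) was taken within each replicate. In 4 pairs the sign was the same in 4 of 4 replicates. KLF5 exceeded TP63 by 0.80 ± 0.27 (SD, n = 4) and TP63 exceeded GRHL2 by 0.41 ± 0.31. KLF4 exceeded GRHL3 by 1.67 ± 1.42 and GRHL1 exceeded ZNF750 by 2.65 ± 0.55. In the other 4 pairs the difference was smaller than its spread: 0.42 ± 1.74 for GRHL2 over TFAP2A, -0.23 ± 1.79 for TFAP2A over OVOL1, 0.59 ± 1.41 for OVOL1 over KLF4 and 0.12 ± 0.48 for GRHL3 over GRHL1. An exact permutation test by flipping signs (two-sided) has a smallest p of 0.13 at this n, which the pairs of like sign reached (adjusted p = 0.25 over 8 pairs), so no pair could pass a threshold of 0.05. TFAP2A, OVOL1, KLF4 and GRHL2 had no order common to all 4 libraries.

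Replicate 1 decided part of this order. Without it, TFAP2A was above GRHL2 in 3 of 3 replicates, with a difference of GRHL2 from TFAP2A of -0.45 ± 0.19 (SD, n = 3), and above OVOL1 by 0.66 ± 0.26. The difference of OVOL1 from KLF4 became -0.00 ± 0.96. The lead of KLF5 over TP63 depended on gene length, which is 3749 bases for KLF5 and 7017 for TP63. In counts scaled by library only, without length correction, the difference was -0.10 ± 0.28, since TP63 had more reads than KLF5 in replicates 1, 2 and 4.

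Within the KLF family, KLF5 was above KLF4 in 4 of 4 replicates, by 1.98 ± 1.35 on the log2(TPM + 1) scale (SD, n = 4; exact permutation of signs, two-sided, p = 0.13, adjusted p = 0.17 over 4 family pairs). The size of this lead differed between libraries far beyond counting error. Per kilobase, KLF5 had 10.9 times the reads of KLF4 in replicate 1 (95% Clopper-Pearson interval 10.2 to 11.6) and 7.89 times in replicate 4 (7.10 to 8.78). It had only 2.14 times in replicate 2 (1.996 to 2.29) and 1.51 times in replicate 3 (1.41 to 1.61). No 2 of these intervals overlapped.

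The ratio of GRHL2 to GRHL1 was the steadiest of the pairs compared. Per kilobase it was 6.12 (5.76 to 6.51), 6.70 (5.73 to 7.86), 6.12 (5.20 to 7.25) and 7.62 (6.53 to 8.95) in replicates 1 to 4. The intervals of replicates 2 to 4 overlapped one another, while those of replicates 1 and 4 lay just apart. On the log2(TPM + 1) scale GRHL2 exceeded GRHL1 by 2.57 ± 0.15 (SD, n = 4), and in this pair replicate 1 was not set apart from the others. GRHL2 exceeded GRHL3 by 2.45 ± 0.36, with a ratio per kilobase of 7.61 and 7.92 in replicates 1 and 3 and of 4.60 and 4.85 in replicates 2 and 4. GRHL1 and GRHL3 changed places: GRHL1 had 1.24 and 1.29 times the reads of GRHL3 per kilobase in replicates 1 and 3, and 0.686 and 0.636 times in replicates 2 and 4. Each of these 4 intervals excluded 1, so the alternation was larger than counting error, but over replicates the mean difference of -0.12 ± 0.48 was within the spread (p = 0.75, exact permutation of signs).

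**Figure D2:**
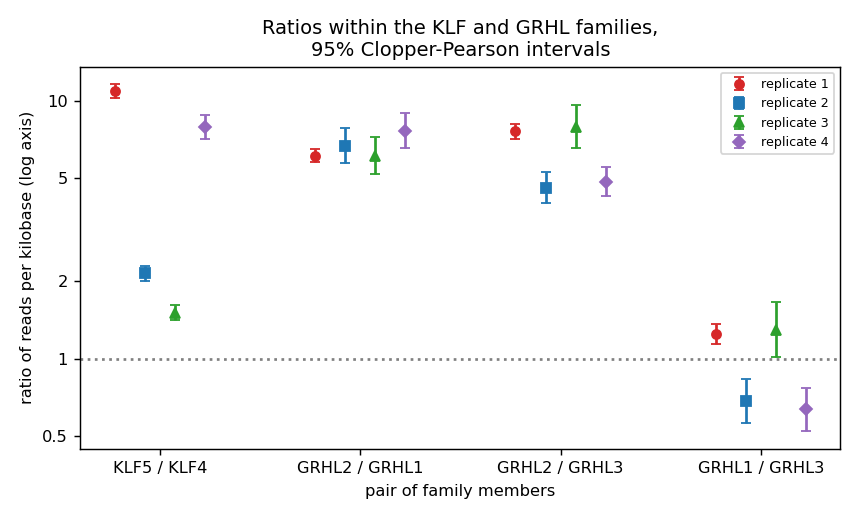
Ratio of reads per kilobase (log axis) for 4 pairs of family members in each replicate, with 95% Clopper-Pearson intervals for counting error. GRHL2 to GRHL1 stays between 6.12 and 7.62, while KLF5 to KLF4 runs from 1.51 to 10.9.

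Set against replicates 2 to 4, replicate 1 held more transcript of 5 of the 8 detected factors than any other replicate, and less of 2. Among all detected protein-coding genes replicate 1 was above the others in 40.2% and below them in 37.4%, or outside their range in 77.6%, so the 7 of 8 seen for the factors is near the background. OVOL1 was 2.05 times the mean of the other replicates, GRHL1 2.12 times, GRHL2 1.89 times, TP63 1.40 times and KLF5 1.37 times. GRHL3 lay within the range of the others. TFAP2A and KLF4 were below, and the mean of replicates 2 to 4 was 6.50 times replicate 1 for TFAP2A and 2.94 times for KLF4. On the log2(TPM + 1) scale the difference was -2.53 for TFAP2A and -1.33 for KLF4, and 0.03 for the median detected gene. These are differences of 1 library from 3, and no test was run.

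The direction for the 5 factors that were higher in replicate 1, and for GRHL3, depended on the scaling. In TPM over all genes, in which the other RNA classes of replicate 1 take a share, the median gene was shifted by -1.69 (log2) in replicate 1. Replicate 1 was then below the mean of the others for all 8 detected factors, GRHL3 included (-0.86), and TFAP2A and KLF4 were below it in either scaling. GC content also moved with this difference, from a median of 0.91 in the lowest of 10 equal bins of detected genes by GC content to -0.82 in the highest. The longest protein-coding transcript of TFAP2A has 49.4% GC and that of KLF4 54.96%, and the median differences of their bins were -0.21 and -0.39. Relative to these medians TFAP2A stood at -2.33 and KLF4 at -0.94. TP63, with 42.5% GC, stood at -0.03, close to the median gene of its GC content. OVOL1, with 58.3% GC, was higher by 1.61 than the median of its bin. The part of GC content in these differences was not tested further.

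**Figure D3:**
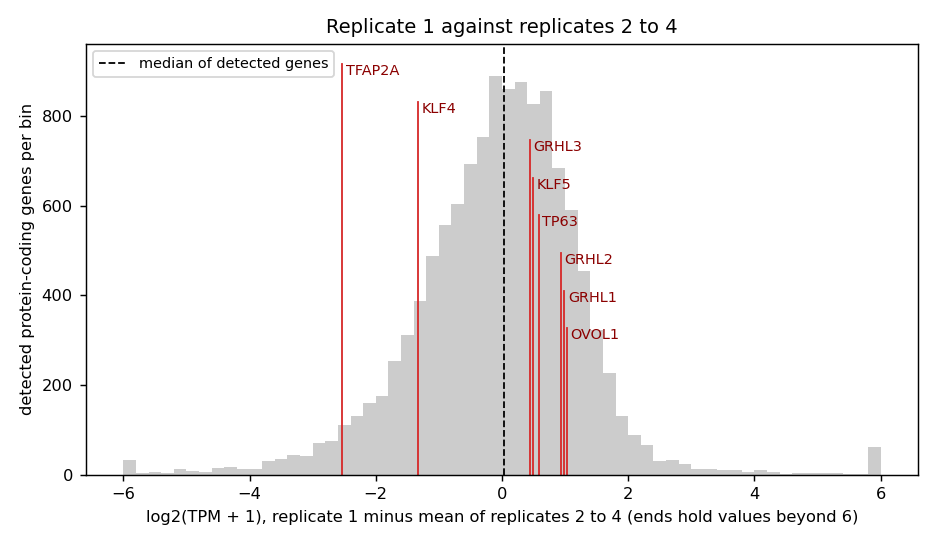
Difference of log2(TPM + 1) between replicate 1 and the mean of replicates 2 to 4 (x axis) for all 12165 detected protein-coding genes (grey bars, genes per bin) and for the 8 detected factors (red lines of arbitrary height), with values beyond 6 in the end bins. TFAP2A at -2.53 and KLF4 at -1.33 lie to the left, and the other factors lie between 0.44 and 1.03, on the right of the median of 0.03.

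Over all 4 replicates, the highest value was more than 2 times the lowest for 8 of 8 detected factors, against 64.2% of detected genes. Among replicates 2 to 4 this held for 3 of 8, namely TP63, KLF4 and GRHL3, against 30.3%. The factors had a median SD of log2(TPM + 1) of 0.60 against 0.52. TFAP2A, with an SD of 1.32, stood at percentile 93.8 of detected genes for this spread and KLF4, with 0.99, at percentile 86.1. KLF5 was the steadiest, at percentile 39.5. Without replicate 3 the 2-fold count was also 3 of 8, against 49.7% of detected genes over the same libraries, so replicates 1 and 3 each decided much of it.

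The 4-replicate profiles of some factors ran together. The measure was the root mean square difference between 2 genes of their log2(TPM + 1) deviations from their own means, over 4 replicates. The nearest pair of factors was OVOL1 and GRHL1 at 0.051, and 17 of 12164 other genes were nearer to OVOL1 than that. TP63 and GRHL3 were next, at 0.089. The gene nearest to KLF5 was NLK at 0.015, to TP63 TNS1 at 0.031, to GRHL2 PAG1 at 0.016, to OVOL1 SERINC1 at 0.0090, to GRHL3 ATXN1 at 0.016 and to GRHL1 METTL14 at 0.015. TFAP2A was nearest to CDK3, at 0.053, and KLF4 to FAM86B1, at 0.14. Between 12 and 143 genes lay within 0.1 of each factor other than KLF4, for which there was none, so over 4 points these neighbours mark a common profile of the libraries and little more.

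The families of the factors were read beside them. Of 25 relatives, 16 were detected, near the share of 63.3% among all protein-coding genes. TP73, which encodes the p63 relative p73, had 4.72, 2.75, 1.45 and 7.73 TPM, below TP63 in every replicate. In the KLF family 10 of 15 relatives were detected, with KLF13 (58.1 TPM) and KLF10 (40.8 TPM) highest, and none of the 15 had a mean above that of KLF5. KLF1, KLF2, KLF14, KLF15 and KLF17 did not pass the limit, and KLF17 had 0 counts in all 4 libraries. Of the distant CP2 relatives of the grainyhead genes, UBP1 (27.5 TPM) and TFCP2 (17.3 TPM) were detected and TFCP2L1 was not.

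TFAP2C, the AP-2γ gene, was steady where TFAP2A was not, with 44.5, 59.4, 47.5 and 53.1 TPM. Per kilobase TFAP2C had 4.83 times the reads of TFAP2A in replicate 1 (4.49 to 5.20) and 0.764, 1.13 and 0.886 times in replicates 2 to 4. The AP-2 gene with more transcript was thus TFAP2C in replicates 1 and 3 and TFAP2A in replicates 2 and 4. TFAP2B, TFAP2D and TFAP2E did not pass the limit. OVOL2, a repressor of mesenchymal genes, had 38.0 TPM in replicate 1 and 10.9 to 15.6 TPM in the others, and OVOL1 was 1.98 to 3.69 times OVOL2 per kilobase. OVOL3 was detected at a mean of 1.38 TPM from at most 13 counts.

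**Figure D4:**
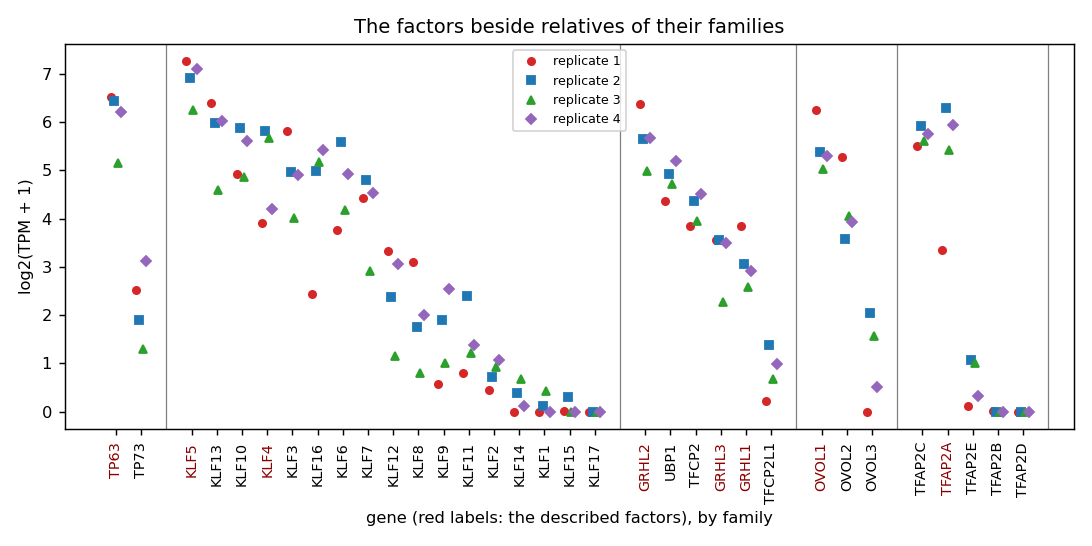
log2(TPM + 1) in each replicate of the described factors (red labels) and their relatives (TP73 and the KLF, grainyhead/CP2, OVOL and AP-2 families), ordered by mean within a family. KLF5 heads its family, TFAP2C is level across replicates where TFAP2A falls to 9.21 TPM in replicate 1, and 9 relatives lie below the detection limit.

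Most genes known as direct p63 targets were abundant. Of 12, 11 were detected, against 63.3% of all protein-coding genes. The median level was 193 TPM over the list against 7.21 TPM over all protein-coding genes. KRT14 and KRT5, the keratin pair of basal cells, were highest. SATB1, a chromatin organizer, was the 1 not detected, at 0.809 TPM, and FRAS1 was near the limit at a mean of 1.65 TPM. In replicate 1, 5 of the 11 were above and 4 below the other replicates, against 40.2% above and 37.4% below among all detected genes. The median difference of the detected targets was -0.00 on the log2(TPM + 1) scale. Although TP63 itself was lowest in replicate 3, KRT14 was level at 6824, 7642, 6547 and 6375 TPM. PERP, a desmosomal p63 target, had 634 TPM in replicate 1 and 136 to 191 TPM in the others.

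All 7 genes listed as grainyhead targets were detected, led by ST14 (412 ± 114 TPM) and RAB25 (229 ± 52.9 TPM, SD, n = 4). For this count, and for the other counts of detected genes below, the share of all protein-coding genes was 63.3%. In replicate 1, 3 of the 7 were above the other replicates (RAB25, ESRP1 and OVOL2), 3 below (ST14, CLDN3 and CLDN4) and 1 within (CDH1). Among all detected genes 40.2% were above and 37.4% below. ST14, which encodes matriptase, had 242 TPM in replicate 1 and 451 to 481 TPM in the others. CDH1, the E-cadherin gene, had 146, 178, 67.0 and 183 TPM. Its lowest replicate, replicate 3, was also that of GRHL2, KLF5, TP63, OVOL1, GRHL1 and GRHL3. Of the other grainyhead targets, RAB25 and ESRP1 were lowest there too, while ST14, CLDN3 and CLDN4 were lowest in replicate 1 and OVOL2 in replicate 2. The share of all detected genes lowest in replicate 3 was not computed. Of the 6 transcription factors of epithelial-mesenchymal transition, which GRHL2 and the OVOL factors are known to oppose, SNAI2 (31.6 TPM), TWIST2 (3.76 TPM) and TWIST1 (1.75 TPM) were detected. ZEB1, ZEB2 and SNAI1 were not, with at most 12 counts in any replicate. The 4 genes whose proteins act with ZNF750 were all detected at 29.8 TPM or more, led by KDM1A (354 TPM) and CTBP1 (86.5 TPM), although ZNF750 itself was near 0.

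Genes of terminal differentiation, which KLF4, GRHL3, OVOL1 and ZNF750 are known to act on, divided the libraries. Of 15, 10 were detected, near the share of 63.3% among all protein-coding genes, but KRT1 and DSG1 passed the limit through replicate 1 alone and so had to differ. Of the other 8, in replicate 1 5 were above the other replicates, 1 below and 2 within, against 40.2% above and 37.4% below among all detected genes. Their median difference was 1.69 on the log2(TPM + 1) scale, against 0.03 for all detected genes. In TPM over all genes the median gene was shifted by -1.69 (log2) in replicate 1 and by -0.193 to -0.105 in the others. The difference of these targets was not computed in that scaling. KRT10, an early suprabasal keratin, had 229 TPM in replicate 1 and 31.3 to 52.4 TPM in the others, and IVL, the cornified envelope protein involucrin, had 202 TPM against 4.06 to 14.9 TPM. ALOXE3 was the 1 below, with 1 count in replicate 1 against 57, 57 and 24. FLG (6.36 TPM against 3.25 to 14.3 TPM) and SPRR2A (0.486 TPM against 0.3965 to 3.33 TPM) lay within. KRT1, named after its values were seen, had 7396 counts in replicate 1 and 7, 12 and 4 in the others. DSG1, the desmosomal cadherin of upper layers, likewise had 2107 counts against 0, 0 and 0. LOR, TGM3, TGM5, CDSN and ALOX12B did not pass the limit. In the same library KLF4 was at its lowest, ZNF750 was not detected and GRHL3 was level, while OVOL1 was at its highest. In TPM over all genes OVOL1 was instead below the mean of the other replicates there (-0.47). With 4 libraries no correlation between a factor and its targets was computed, and the part of the preparation of replicate 1 in these values was not tested.

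**Figure D5:**
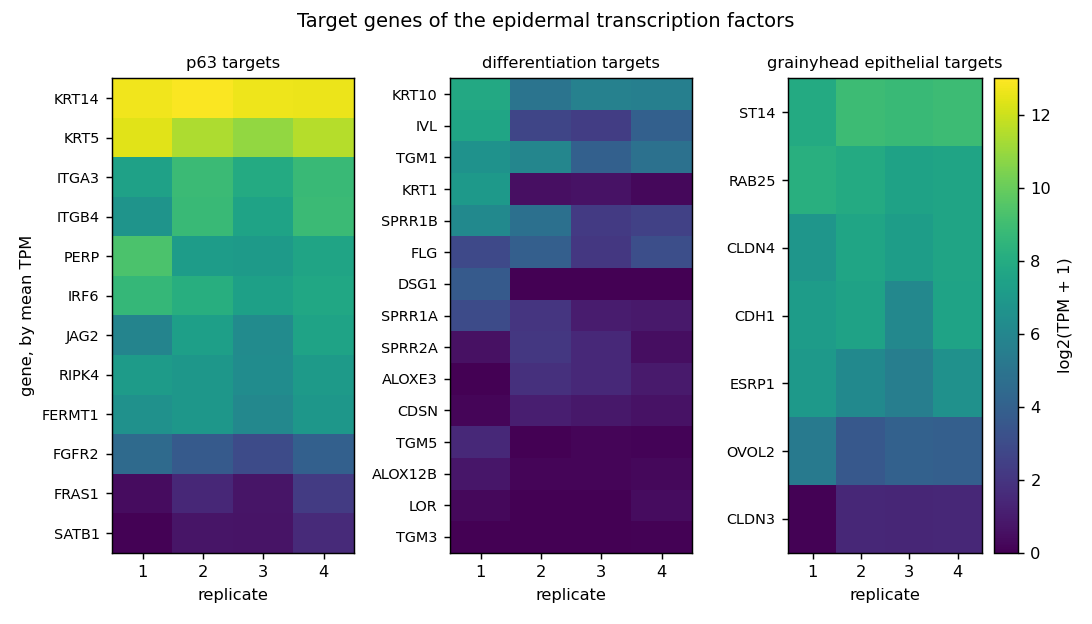
log2(TPM + 1) of p63 targets, differentiation targets and grainyhead targets (rows, by mean TPM) in replicates 1 to 4 (columns). KRT14 and KRT5 are bright throughout, and KRT1, IVL and DSG1 are brightest in replicate 1.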

How the data were processed

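RNA-seq was performed on 4 replicates of untreated HaCaT cells, which were grouped by their sample titles. The authors deposited raw counts per gene with a gene length, and beside them RPKM for replicates 1 and 2 and TPM over all genes for replicates 3 and 4. The deposited RPKM and TPM were recomputed from the counts and lengths and were equal within rounding. The submitters' processing notes name hg19 and HISAT, HISAT2, TopHat2 and Bowtie2. The counting program, annotation and use of strand are not given in the sources used here.

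TPM was computed for every replicate over protein-coding genes, and differences were taken on log2(TPM + 1), a scale that understates changes of low genes. Genes with a mean above 1 TPM were called detected (12165 genes). Paired differences within replicates were compared by exact permutation of their signs (two-sided) with Benjamini-Hochberg adjustment, and the spread measured is that between 4 libraries. Ratios of counts have 95% Clopper-Pearson intervals. No 2 libraries agreed within sampling noise (chi-square per degree of freedom 65.4 or more). GC content came from GENCODE release 29 for 97.7% of detected genes. The functions were tested on simulated data.

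The factors, the gene lists and the alternatives were chosen with earlier results of these data known. Named genes are all 9 factors, for each list the 2 genes with the highest mean and those below the limit by count, the gene nearest in profile to each factor, and overlapping genes. One family relative is not reported here and was left out of the lists. Other list genes with values (TP73, OVOL2, OVOL3, TFAP2C, TWIST1, PERP, FRAS1, CDH1, ESRP1, CLDN3, CLDN4, KRT1, DSG1, ALOXE3, FLG and SPRR2A) were named after their values were seen. Alternatives were TPM over all genes, no length correction, exons of protein-coding transcripts as length, TMM scaling (edgeR 4.0.16), median-of-ratios scaling, other pseudocounts and detection limits, and leaving out each replicate. Differences relative to GC bins, and lists without genes that passed through replicate 1 alone, were added after seeing the data. Statistics used SciPy 1.17.1 and NumPy 2.4.6 in Python 3.11.15, tables used pandas 2.3.3, and figures were drawn with matplotlib 3.10.9.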

Additional observations from a re-analysis of the deposited data

Results flagged for a closer look

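In 38 sets of 4 replicate values (the 9 factors, the 2 highest genes of each list, and KRT1, DSG1, TP73, OVOL2 and TFAP2C), Dixon's criterion at the 95% level set a replicate apart in 8. Chance alone does so in about 1 in 20 sets, but the 8 cannot be set against that: the sets share 4 libraries, KRT1 and DSG1 were named after their values were seen, and a gene taken for its high mean may owe it to 1 replicate. Among the factors the only one was GRHL3, whose replicate 3 (3.87 TPM) was lowest by a gap of 0.934 of the range.

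The other 7 were listed genes in replicate 1. KRT1 was highest there by a gap of 0.997 of the range, IVL by 0.945, KRT10 by 0.894 and DSG1 by 1.00. ST14 was lowest there, by 0.875. VWF, an endothelial gene, was highest by 0.9495 of the range, with 507 counts in replicate 1, while PECAM1 had 0. CD3E was highest by 1.00 of the range, on 13 counts in replicate 1 and 0 elsewhere.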

How the results depend on the processing

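No paired analysis between groups was possible because the study has 1 group, and the paired differences given were between genes within a replicate. The number of factors detected was 8 under every alternative but a limit of 0.1 TPM, which admitted ZNF750 (9). The number of family pairs with 1 sign in every replicate was 3 under every alternative run, and that of neighbouring pairs ranged from 3 without length correction to 6 without replicate 1. The number of detected factors with a more than 2-fold range was 5 in TPM over all genes and ranged from 3 to 8 when replicates were left out (3 without replicate 1 and 3 without replicate 3). In TPM over all genes, the log2 difference of replicate 1 from the others turned to -0.92 for TP63, -1.02 for KLF5, -0.36 for GRHL1, -0.57 for GRHL2, -0.86 for GRHL3 and -0.47 for OVOL1, by construction, since other RNA classes take a larger share there. Relative to genes of like GC content, an alternative chosen after seeing the data, TP63 turned to -0.033. Without length correction KLF5 minus TP63 turned to -0.10 and TFAP2A minus OVOL1 to 0.24. Without replicate 1, GRHL2 minus TFAP2A turned to -0.45, TFAP2A minus OVOL1 to 0.66 and OVOL1 minus KLF4 to -0.0021. GRHL3 minus GRHL1 turned to -0.0030 without replicate 2 and to -0.034 without replicate 4. GRHL1 minus GRHL3, the same comparison with its sign swapped, turned to 0.0030 and 0.034. The cause was not tested. With replicates left out, GRHL2 minus TFAP2A reached at most 0.77, TFAP2A minus OVOL1 at least -0.62, OVOL1 minus KLF4 at most 0.9999, GRHL3 minus GRHL1 at most 0.26 and GRHL1 minus GRHL3 at least -0.26. The difference of replicate 1 for ZNF750, which was not detected, went from -0.084 to 0.066 without replicate 2. Of 445 values recomputed, 17 changed sign, 21 kept it and moved by more than the spread or fold allowed, and 407 did neither. The pair of GRHL1 and GRHL3 is counted under both signs in these numbers, so they are not all distinct results. Depth limits ZNF750, with 6 to 24 counts, and the ratio of GRHL1 to GRHL3.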

Other observations

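The split of KLF4 into replicates 2 and 3 (55.6 and 50.1 TPM) and replicates 1 and 4 (13.9 and 17.3 TPM) was set beside IFI6, an interferon-induced gene chosen after its values were seen. IFI6 had 2417 and 2442 TPM in replicates 2 and 3, and 11.6 and 29.2 TPM in replicates 1 and 4. KLF5 and GRHL2 were lower in both replicates 2 and 3 than in replicates 1 and 4, although GRHL2 had 49.5 TPM in replicate 2 and 50.0 TPM in replicate 4. TP63, TFAP2A, OVOL1, GRHL1 and GRHL3 did not divide along these pairs of replicates. The pairs were taken from the KLF4 values, and the share of all detected genes that divide along them was not computed. With 4 libraries of 1 condition, no relation was tested.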
